A study of Mus musculus with 39 samples.

Results

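Of the 21938 protein-coding genes on mm10, 9 are described here: the SoxC genes Sox4, Sox11 and Sox12, the SoxD genes Sox5, Sox6 and Sox13, and the SoxE genes Sox8, Sox9 and Sox10. A peak was given to the gene whose protein-coding transcription start site lay nearest to it, and in this way 116 of 20809 consensus peaks on nuclear chromosomes went to these genes. SoxC genes received 36 of them, SoxD genes 54 and SoxE genes 26. Of the 9 genes, 8 were nearest to at least 1 consensus peak, compared with 39.7% of all protein-coding genes, and Sox12 was nearest to none. No measured value entered the rule that chose the genes, but they were chosen with earlier results of these data known.

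The peaks come from Targeted DamID (TaDa) in the embryonic mouse cortex, in which a Dam methylase fused to a protein marks GATC sites near the places the protein binds. Plasmids were electroporated at E13.5 into wild-type MF1 embryos and the cortex was taken 24 h later, at E14.5. In radial glial cells (RGCs), the neural stem cells of the cortex, expression was driven by the Hes5 promoter. In intermediate progenitor cells (IPCs), the neuron-producing cells that arise from them, it was driven by the Tα1 promoter. RBPJ was profiled as a fusion of human RBPJ1 in 3 samples of RGCs and 3 of IPCs. Notch was profiled in 4 samples of RGCs, of which 2 carried NdECD (Notch without its extracellular domain) and 2 carried NICD (the intracellular domain), and in 4 samples of IPCs, all with NICD. Dam-only controls with the same promoters numbered 5 in RGCs and 4 in IPCs. They are taken here to have served both proteins, so that the RBPJ list and the Notch list of RGCs (or of IPCs) are not independent. The fusions came from plasmids in every group, so all of these profiles describe introduced rather than endogenous protein. In the cells labelled IPC, Notch was thus expressed ectopically.

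Each of the 4 peak lists (RGC RBPJ, RGC Notch, IPC RBPJ and IPC Notch) is pooled over the samples of its condition. A consensus peak is the union of overlapping list peaks, and it is said to be called in a list when a peak of that list lies within it. The files give positions in bp and a cluster number from 1 to 8, with no height, no value of a single sample and no expression. The depth of sequencing and the spread between replicates are therefore unknown, no test across samples could be made, and the labelled cell types could not be checked against marker genes. Wilson intervals of shares and Newcombe intervals of differences, both at 95%, cover counting error over peaks only, and peaks of 1 gene share a locus and are not replicates. The intervals were not adjusted for the number of differences between gene groups: 34 measures, the 4 lists and 8 clusters among them, were each compared in 3 ways (SoxD, SoxE or both minus SoxC), 102 differences in all, besides the densities of words.

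Sox proteins bind DNA through a shared HMG domain. Sox9 maintains neural stem cells and opens the way to glial fates, Sox8 is its close relative, and Sox10 drives the maturation of oligodendrocytes and neural crest derivatives. SoxD proteins lack a transactivation domain of their own and act with or against other Sox factors: Sox5 and Sox6 set the timing of neuronal and oligodendrocyte differentiation, and Sox13 is a further relative. SoxC proteins switch on neuronal genes as progenitors leave the cycle, with Sox4 and Sox11 as the stronger and Sox12 as the weaker activator. Notch signalling works through its partner RBPJ, which binds DNA and turns into an activator when NICD joins it, and it keeps RGCs from differentiating.

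Sequence of 1 peak is given for each of 5 genes, because these peaks were called in 3 lists or lay on a start site, and among such peaks of a gene the 1 with the most words in a run is shown. Each run is 300 bases of the plus strand of mm10, read from the GRCm38.p6 sequence of RefSeq, placed around the densest group of TTCCCA words in the peak. TTCCCA, or TGGGAA on the other strand, is the core of the RBPJ site, and capitals mark it. A run with a word was chosen in each case, so the presence of the word is no finding. Of 32851 RefSeq promoters, which have the same length of 300 bases, 25.6% hold it on either strand. Such a match is a description of letters and not evidence of a bound site.
Sox4, chr13:28808841-28809140: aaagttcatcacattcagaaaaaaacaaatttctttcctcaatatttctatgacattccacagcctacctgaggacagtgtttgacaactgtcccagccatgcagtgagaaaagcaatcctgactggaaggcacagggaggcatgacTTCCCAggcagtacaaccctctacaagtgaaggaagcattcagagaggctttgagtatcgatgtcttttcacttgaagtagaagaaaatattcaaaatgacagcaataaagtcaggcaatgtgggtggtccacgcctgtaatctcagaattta
Sox11, chr12:27344145-27344444: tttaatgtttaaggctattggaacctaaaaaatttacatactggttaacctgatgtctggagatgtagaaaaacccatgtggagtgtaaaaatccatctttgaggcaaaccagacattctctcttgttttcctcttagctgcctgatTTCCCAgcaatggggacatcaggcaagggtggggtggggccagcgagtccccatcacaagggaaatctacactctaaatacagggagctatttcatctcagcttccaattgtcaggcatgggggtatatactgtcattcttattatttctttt
Sox5, chr6:144779681-144779980: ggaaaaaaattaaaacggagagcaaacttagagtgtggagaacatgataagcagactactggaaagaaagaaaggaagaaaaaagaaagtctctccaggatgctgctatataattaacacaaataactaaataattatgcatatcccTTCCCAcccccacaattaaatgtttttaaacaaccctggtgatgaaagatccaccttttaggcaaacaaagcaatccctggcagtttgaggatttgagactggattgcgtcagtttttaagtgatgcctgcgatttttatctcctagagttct
Sox6, chr7:115384811-115385110: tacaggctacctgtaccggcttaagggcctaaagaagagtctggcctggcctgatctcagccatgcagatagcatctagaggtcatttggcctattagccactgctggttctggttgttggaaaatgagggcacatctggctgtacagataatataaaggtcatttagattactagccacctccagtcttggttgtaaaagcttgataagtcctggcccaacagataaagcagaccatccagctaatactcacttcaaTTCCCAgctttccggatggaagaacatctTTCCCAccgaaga
Sox9, chr11:113120639-113120938: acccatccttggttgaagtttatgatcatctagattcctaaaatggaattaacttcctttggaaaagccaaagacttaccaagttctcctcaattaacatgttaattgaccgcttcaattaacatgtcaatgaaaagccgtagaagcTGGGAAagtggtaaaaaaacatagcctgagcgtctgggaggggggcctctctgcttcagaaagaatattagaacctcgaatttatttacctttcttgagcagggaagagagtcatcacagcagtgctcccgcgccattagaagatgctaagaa

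The Sox4 run lies in an intergenic peak called in 3 lists, and the Sox11 run lies upstream of the start site that its IPC RBPJ peak covered. The Sox5 run lies in the first part of the gene, in a peak called for RBPJ in both cell types. The Sox6 run, with 2 words, closes a peak beyond the 3′ end of the gene that was called for both proteins in RGCs and for Notch in IPCs. The Sox9 run lies in the only Sox9 peak called in 3 lists. A run need not lie in every list peak of its consensus peak. Only the RGC RBPJ peak reached the Sox4 and Sox5 runs, and only the RGC Notch peak reached the Sox6 run. The Sox9 run lay in the peaks of all 3 lists.

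Sox6 had the most consensus peaks of the 9 genes, with 30, followed by Sox4 with 24, Sox9 with 23 and Sox5 with 21. Sox11 had 12, Sox13 had 3, Sox8 had 2 and Sox10 had 1. Counts of this size were uncommon: 5 genes of the annotation had 30 peaks or more, Sox6 among them, and 31 had 21 or more. The number of peaks depends on how much sequence is nearest to a gene, and the stretch nearest to these 9 genes came to 5.31 Mb. Over that stretch there were 21.8 peaks per Mb, compared with 7.63 per Mb of the whole nuclear genome. By group the density was 21.8 for SoxC, 23.1 for SoxD and 19.5 for SoxE, so the 3 groups lay close together. Within groups it was uneven, with 39.4 peaks per Mb at Sox4 and 11.7 at Sox11, and 35.6 at Sox6 and 15.6 at Sox5. Sox9, with 1.25 Mb nearest to its single start site, had 18.4 per Mb.

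**Figure D1:**
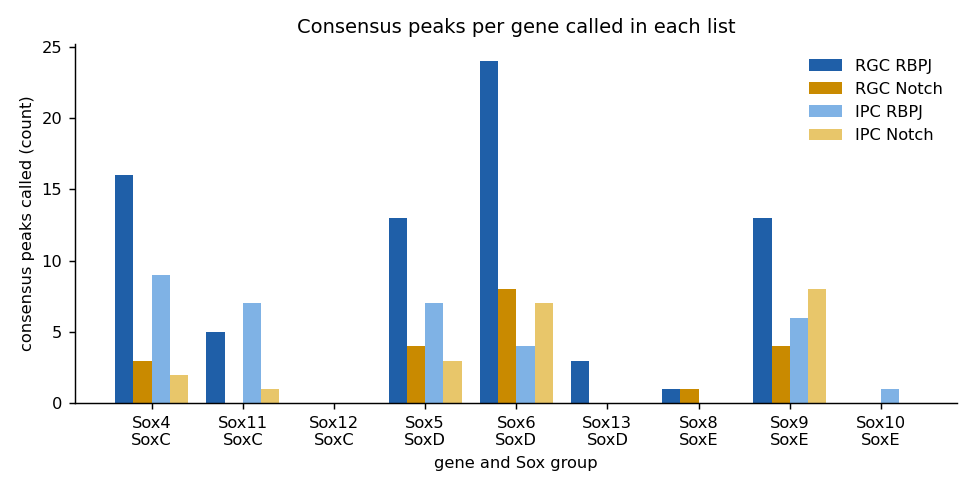
Number of consensus peaks called in each of the 4 lists (y axis) for each gene (x axis, with its Sox group); a peak called in several lists is counted in each. RGC RBPJ was the longest list at Sox6 with 24 peaks, whereas at Sox11 IPC RBPJ with 7 exceeded RGC RBPJ with 5, and at Sox9 IPC Notch with 8 exceeded IPC RBPJ with 6.

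The neuronal SoxC genes had their peaks called more often than the other groups in the IPC RBPJ list, though no replicate test could be made. Of their 36 peaks, 16 (44.4%, interval 29.5 to 60.4) were called there, compared with 18 of 80 (22.5%, 14.7 to 32.8) for SoxD and SoxE together and 26.2% of all consensus peaks. The difference, SoxD and SoxE minus SoxC, was -21.9 percentage points (-39.7 to -3.84). The direction held for SoxD alone (20.4%) and for SoxE alone (26.9%), although the interval of the difference between SoxE and SoxC, from -38.3 to 6.75, included 0. The interval for SoxD and SoxE minus SoxC also included 0 without Sox11 (-15.0, from -36.3 to 4.31) and without Sox6 (-16.4, from -35.6 to 3.78). For peaks within 100 kb of a start site it included 0 as well (-15.9, from -45.7 to 9.52). Of all consensus peaks called in the IPC RBPJ list, 32.7% hold no GATC site, compared with 1.62% of those not called there. With peaks that hold a GATC site alone, the difference was -22.9 points (-41.2 to -4.65).

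In the RGC RBPJ list the groups overlapped in their intervals. It called 21 of 36 SoxC peaks (58.3%), 40 of 54 SoxD peaks (74.1%) and 14 of 26 SoxE peaks (53.8%), compared with 67.6% of all consensus peaks. The share of SoxD and SoxE together exceeded that of SoxC by 9.17 points (-8.97 to 27.8). RGC Notch called 3 SoxC peaks (8.33%) and 17 of 80 SoxD and SoxE peaks (21.2%), compared with 17.7% of all, a difference of 12.9 points (-2.54 to 24.5).

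IPC Notch called 3 of 36 SoxC peaks (8.33%, 2.87 to 21.8), 10 of 54 SoxD peaks (18.5%, 10.4 to 30.8) and 8 of 26 SoxE peaks (30.8%, 17 to 50), compared with 10.1% of all consensus peaks. All 8 SoxE peaks in this list belonged to Sox9, where they made up 34.8% (18.8 to 55.1) of the 23 peaks. SoxE alone exceeded SoxC by 22.4 points (2.80 to 42.4), a difference for which 1 gene, Sox9, supplied every SoxE call. SoxD and SoxE together exceeded SoxC by 14.2 points (-1.40 to 25.8), an interval that included 0. When a list peak had to cover at least 50% of the consensus peak, the difference was 1.67 points (-12.7 to 11.8). Within 100 kb of a start site both shares were 27.3%, a difference of 0 points (-31.3 to 22.8). IPC Notch peaks were narrow, with a median width of 1284 bp over the list compared with 1398 bp for IPC RBPJ and 2059 bp for RGC RBPJ. With the same limit of 50%, the IPC RBPJ difference was -26.7 points (-44.0 to -9.36). The part of peak width was not tested.

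**Figure D2:**
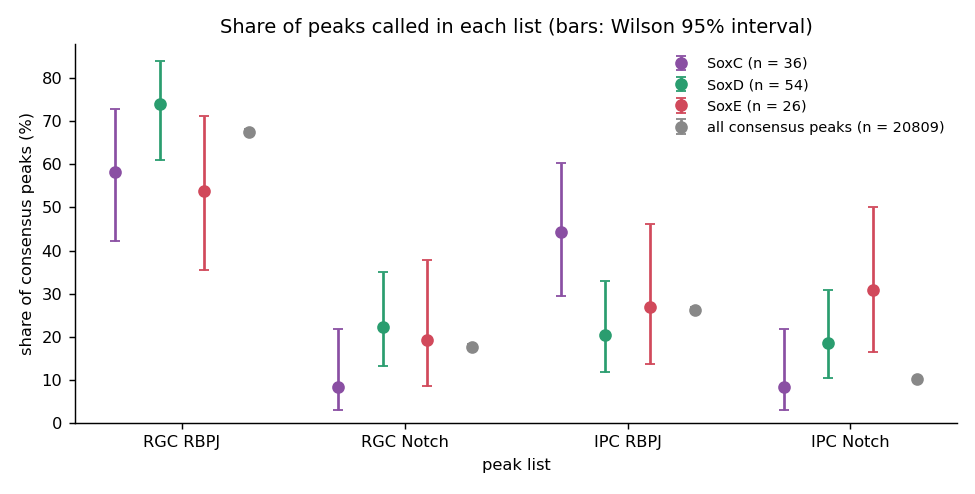
Share of consensus peaks (y axis, percent) called in each list (x axis) for SoxC, SoxD and SoxE genes and for all consensus peaks; bars are Wilson 95% intervals over peaks. SoxC lies highest in IPC RBPJ (44.4%) and SoxE highest in IPC Notch (30.8%), and the intervals of the 3 groups overlap in each list.

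Most peaks of the 9 genes were called in a single list, 88 of 116 (75.9%), compared with 82.9% of all consensus peaks. Calls in 3 or 4 lists were found at 5 (4.31%), compared with 3.88% of all. Both proteins were called at the same consensus peak in RGCs at 7 (6.03%; all peaks, 7.77%) and in IPCs at 4 (3.45%; all peaks, 2.36%). These shares were near those of all peaks. Peaks called in RGC lists only numbered 65 (56.0%), compared with 66.1% of all, and peaks called in IPC lists only numbered 28 (24.1%), compared with 22.4% of all. The latter were unevenly distributed, with 14 of 36 SoxC peaks (38.9%) and 14 of 80 SoxD and SoxE peaks (18%), a difference of -21.4 points (-39.0 to -4.24). For SoxD alone the share was 11.1%, and the difference from SoxC was -27.8 points (-45.1 to -9.84). For SoxE alone the share was 30.8%, and the difference from SoxC was -8.12 points. The interval of that SoxE difference, from -29.7 to 15.7, held values of either sign. By gene, Sox11 had 7 of its 12 peaks in IPC lists only and Sox6 had 1 of 30. Between them lay Sox9 with 7 of 23 (30.4%), Sox4 with 7 of 24 (29.2%) and Sox5 with 5 of 21 (23.8%). The group differences in this share were not recalculated with single genes left out, Sox11 and Sox6 among them.

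The 8 k-means clusters were made by the authors from binding intensities of the same profiles, so clusters and calls are not independent readouts. Over all consensus peaks, cluster 3 is nearly an IPC RBPJ cluster, since 96.7% of its peaks were called in that list. The RGC RBPJ list took in 97.6% of cluster 5 and 99.4% of cluster 8. RGC Notch took in 70.8% of cluster 1. Cluster 4 combined RGC RBPJ (81.0%) with RGC Notch (41.7%). Clusters 2, 6 and 7 mixed the cell types, with IPC Notch at 46.5% of cluster 2 and 48.3% of cluster 6, and IPC RBPJ at 52.9% of cluster 7.

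The share of SoxC peaks exceeded that of SoxD and SoxE peaks in clusters 3 and 4. Cluster 3 held 10 of 36 SoxC peaks (27.8%) and 6 of 80 SoxD and SoxE peaks (7.5%), compared with 16.3% of all consensus peaks, a difference of -20.3 points (-37.0 to -5.96). The interval of the SoxC share, 15.8 to 44.0, included the share of all peaks. That of SoxD and SoxE, 3.48 to 15.4, lay below it. Sox4 contributed 6 and Sox11 contributed 4 of the SoxC peaks, and all 10 were called for RBPJ in IPCs and in no other list. Within 100 kb of a start site the difference was -2.27 points (-31.3 to 11.4), as 1 of 11 SoxC peaks (9.09%) was then in cluster 3. The interval also included 0 for SoxE alone (-20.1, from -37.2 to 0.234) and with start sites of all annotated genes (-8.10, from -48.2 to 11.3). Many cluster 3 peaks hold no GATC site, the sequence that Dam methylates. This was so for 51.3% of all cluster 3 peaks, for 2 of the 10 of SoxC and for 2 of the 6 of SoxD and SoxE. With peaks that hold a GATC site alone, the difference was -19.0 points (-36.1 to -5.44).

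Cluster 4 held 8 SoxC peaks (22.2%) and 4 SoxD and SoxE peaks (5.0%), compared with 9.79% of all, a difference of -17.2 points (-33.4 to -4.51). Of the 8, 7 were Sox4 peaks, 6 of which the RGC RBPJ list called, and without Sox4 the difference was -3.33 points (-30.6 to 6.58). Its interval included 0 as well for SoxE alone (-14.5, from -31.3 to 4.99) and with all annotated genes (-11.0, from -50.9 to 7.83). Cluster 1 showed the opposite order, with 1 SoxC peak (2.78%) and 14 SoxD and SoxE peaks (18%), compared with 10.5% of all. This difference was 14.7 points (1.47 to 24.7), and its interval included 0 without Sox6 (-0.507 to 25.9), without Sox4 (-7.68 to 27.3), without Sox11 (-4.11 to 23.7), within 100 kb of a start site (-9.11 to 32.0), with all annotated genes (-22.9 to 32.7) and for peaks of at least 1000 bp (-1.90 to 25.2). Of those 14, 6 were Sox6 peaks, 4 Sox9, 3 Sox5 and 1 Sox8, and 11 were called for Notch in RGCs.

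In the other clusters the intervals of the difference included 0. Cluster 6 held 4 SoxC peaks (11.1%) and 16 SoxD and SoxE peaks (20%), compared with 10.8% of all, a difference of 8.89 points (-7.08 to 21). The 16 were 6 at Sox9 and 5 each at Sox5 and Sox6, and 11 of the 16 were called for Notch in IPCs. Cluster 5 held 25 peaks of the 9 genes (21.6%; all peaks, 22.5%), cluster 2 held 5 (4.31%; all, 4.76%), cluster 7 held 14 (12.1%; all, 11.0%) and cluster 8 held 9 (7.76%; all, 14.4%).

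**Figure D3:**
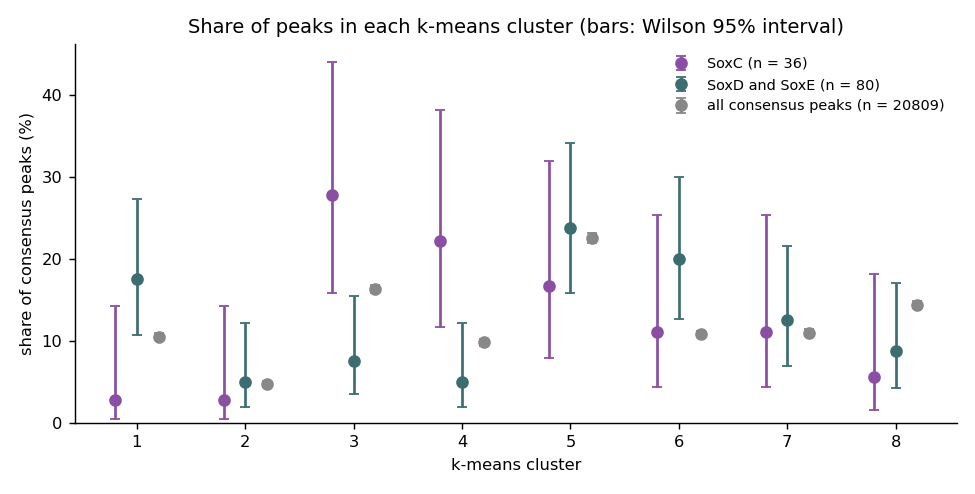
Share of consensus peaks (y axis, percent) in each k-means cluster (x axis) for SoxC genes, for SoxD and SoxE genes together and for all consensus peaks; bars are Wilson 95% intervals over peaks. SoxC lies above SoxD and SoxE in clusters 3 (27.8% and 7.5%) and 4 (22.2% and 5.0%) and below them in cluster 1 (2.78% and 18%).

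Sox4 (ENSMUSG00000076431; chromosome 13, 28948919 to 28953713, minus strand) has a single start site, and no peak lay on it. Its nearest peak, chr13:28946588-28951831, lay 1.88 kb away over the 3′ part of the gene and was called for RBPJ and Notch in IPCs. A second, chr13:28957003-28959594, lay 3.29 kb upstream and was called for RBPJ in both cell types. The other 22 were intergenic with respect to protein-coding genes, and 20 of the 24 lay on the 3′ side of the start site. Of the 24, 18 overlapped the non-coding gene 2610307P16Rik. RGC RBPJ called 12 of these, RGC Notch 3, IPC RBPJ 6 and IPC Notch 1, with some peaks in more than 1 list. The densest 100 kb held 10 peaks, from 28757488 to 28847908, and included chr13:28808669-28812849 in cluster 1, the sole SoxC peak called in 3 lists (RGC RBPJ, RGC Notch and IPC RBPJ).

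Sox11 (ENSMUSG00000063632; chromosome 12, 27334264 to 27342574, minus strand) was the sole SoxC gene with a peak on its start site. That peak, chr12:27342207-27344885 in cluster 6, was called for RBPJ in IPCs and in no other list. A peak over the untranslated 3′ part of its exon, chr12:27336160-27337859, was the sole Sox11 peak called for Notch in IPCs, and no Sox11 peak was called for Notch in RGCs. Across the 12 peaks, IPC RBPJ called 7 (58.3%) and RGC RBPJ called 5 (41.7%). At Sox4 the order was the other way, with 9 of 24 (37.5%) and 16 of 24 (66.7%).

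Sox12 (ENSMUSG00000051817), on chromosome 2 from 152393611 to 152398063, was nearest to no peak of any list. The stretch nearest to it was 0.0192 Mb. A region without a called peak is not shown to be unbound.

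**Figure D4:**
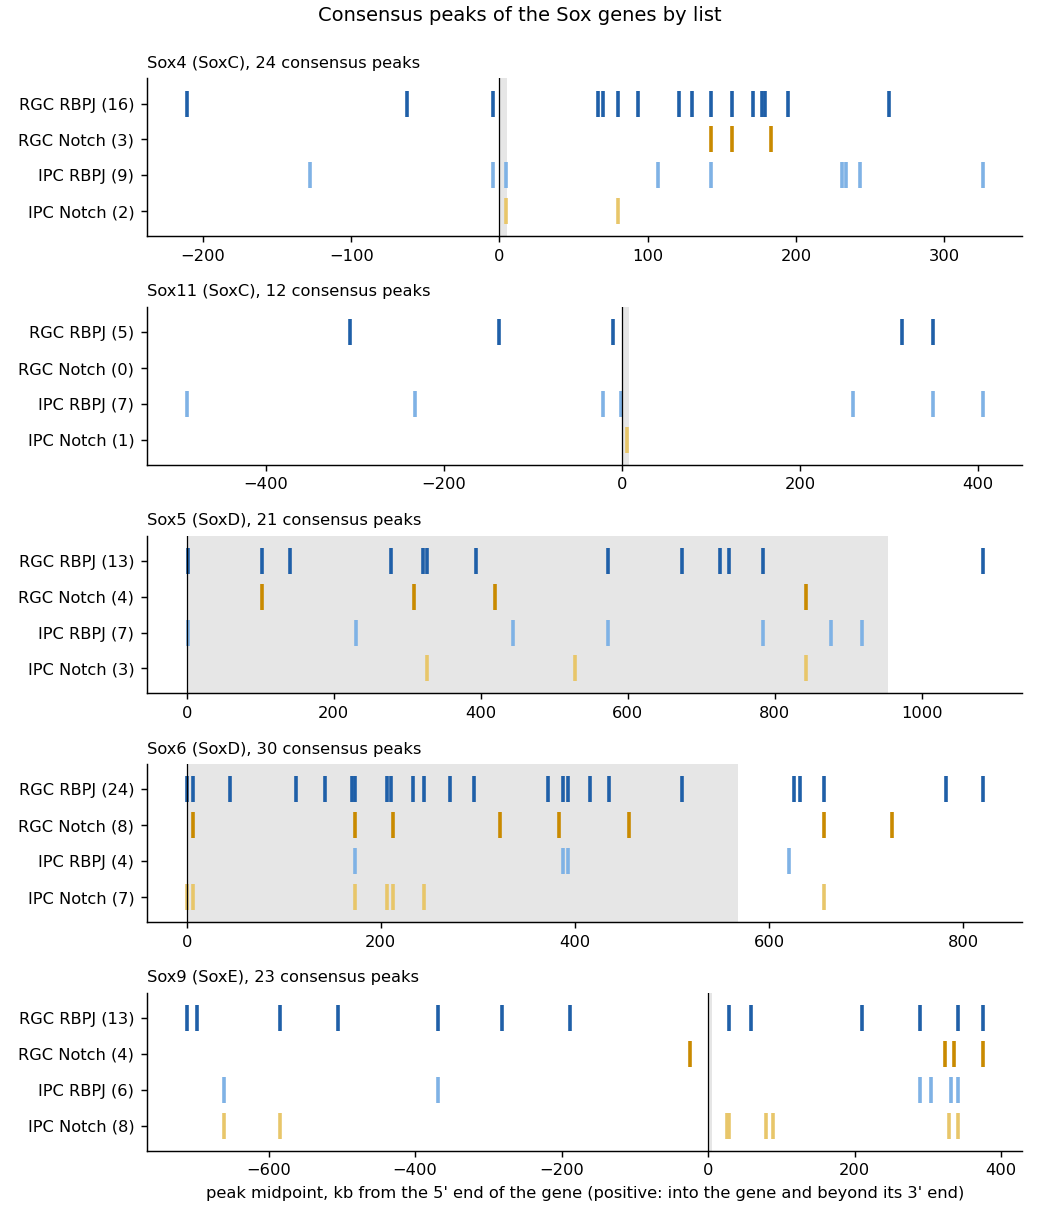
Midpoints of the consensus peaks of 5 genes (x axis, kb from the 5′ end of the gene, positive towards and beyond its 3′ end), with 1 row of ticks for each list and the number called in brackets; grey marks the gene. Peaks of Sox5 and Sox6 lie mostly inside these long genes, those of Sox4, Sox11 and Sox9 mostly outside them, and Sox9 shows 4 IPC Notch ticks within 100 kb of its 3′ side.

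Sox5 (ENSMUSG00000041540; chromosome 6, 143828425 to 144781977, minus strand) had 20 of its 21 peaks in introns and 1 beyond its 3′ end. A peak in cluster 5, chr6:144778453-144782580, lay on its start sites at the 5′ end and was called for RBPJ in RGCs and IPCs. The RGC peak, of 4128 bp, covered both start sites there, whereas the IPC peak of 1331 bp inside it covered neither. Another peak called for RBPJ in both cell types, chr6:144207740-144209414 in cluster 2, ended 0.038 kb short of an internal start site. Of the 21 peaks, RGC RBPJ called 13, IPC RBPJ 7, RGC Notch 4 and IPC Notch 3, and none was called in 3 lists.

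Sox6 (ENSMUSG00000051910; chromosome 7, 115470872 to 116038796, minus strand) had 22 peaks in introns, 7 beyond its 3′ end and 1 at its 5′ untranslated exon. It was the gene with most RGC RBPJ calls among the 9, 24 of 30 (80%), and 4 of its 30 peaks were called for RBPJ in IPCs (13.3%). Its peak chr7:115863563-115867423 in cluster 2 was the sole peak of the 9 genes called in all 4 lists, in an intron 3.71 kb from a start site. The 4 list peaks within it were 3584 bp (RGC RBPJ), 2373 bp (RGC Notch), 2070 bp (IPC RBPJ) and 2310 bp (IPC Notch) wide. Notch was called in both cell types at this peak and at 3 more Sox6 peaks, described next.

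Start sites of Sox6 lay in 4 peaks. The peak chr7:116028956-116035893 in cluster 7 covered 3 start sites and was called in RGC RBPJ, RGC Notch and IPC Notch. The peak chr7:116036780-116040700, at the 5′ end of the gene, was called in RGC RBPJ and IPC Notch, and the start site of another protein-coding gene also lay in it. The peak chr7:115823911-115827421 in cluster 6 was called for Notch in both cell types and for RBPJ in neither; its RGC Notch peak covered the start site and its IPC Notch peak did not. The last, chr7:115993319-115995138 in cluster 8, was called in RGC RBPJ alone. Beyond the 3′ end, chr7:115379116-115385110 in cluster 6 was called in the same 3 lists as the first. IPC Notch was called at 7 Sox6 peaks and IPC RBPJ at 4, and 1 peak was in both.

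Sox13 (ENSMUSG00000070643; chromosome 1, 133382303 to 133424377, minus strand) had 3 peaks, all called in RGC RBPJ alone. They lay 2.14, 27.2 and 67.2 kb from a start site, the nearest at the 3′ end of the gene, chr1:133382020-133383382.

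Sox9 (ENSMUSG00000000567; chromosome 11, 112782224 to 112787760, plus strand) had all 23 peaks in sequence outside protein-coding genes. The median distance to its single start site was 321 kb, the range 24.6 to 712 kb, and 17 of the 23 lay more than 100 kb away. The nearest, chr11:112756482-112757594 in cluster 1, lay upstream and was called for Notch in RGCs. Of the 5 other peaks within 100 kb, all on the 3′ side, 4 were called for Notch in IPCs, 3 of them in cluster 6 and in no other list, and 2 were called for RBPJ in RGCs. None of the 6 was called for RBPJ in IPCs.

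A second group of Sox9 peaks lay further on the 3′ side. The 8 peaks from 113070680 to 113159873, a stretch of 89.2 kb, all overlapped the non-coding gene 2610035D17Rik. RGC RBPJ called 3 of them, RGC Notch 3, IPC RBPJ 4 and IPC Notch 2. The peak called in 3 lists, chr11:113120261-113126831 in cluster 6, lay in this group, 338 kb from the start site. Its RGC RBPJ peak was 6552 bp wide, and its IPC RBPJ peak of 1891 bp and IPC Notch peak of 1699 bp both lay at its left end. Upstream of Sox9 were 9 peaks, some of them in more than 1 list: RGC RBPJ called 7, RGC Notch 1, IPC RBPJ 2 and IPC Notch 2. Both proteins were called in IPCs at 2 Sox9 peaks, this one and chr11:112120923-112122313 in cluster 3.

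The other SoxE genes had few peaks. Sox8 (ENSMUSG00000024176), on chromosome 17 from 25565892 to 25570686, had an RGC Notch peak, chr17:25550325-25553303, and an RGC RBPJ peak, chr17:25554868-25557404, 12.8 kb from its start site. Sox10 (ENSMUSG00000033006), on chromosome 15 from 79154908 to 79165240, had 1 peak, chr15:79176891-79178259 in cluster 3, called for RBPJ in IPCs 11.7 kb away. That Sox10 peak holds no GATC site.

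Peaks of the 9 genes were far from start sites, with a median of 114 kb compared with 21.1 kb over all consensus peaks. The medians were 162 kb for SoxC, 54.3 kb for SoxD and 297 kb for SoxE. SoxD genes have many start sites, 12 for Sox5 and 13 for Sox6, and with 1 start site per gene the SoxD median was 322 kb. A start site lay in 6 of the 116 peaks (5.17%), compared with 16.6% of all. By midpoint, 42 of 54 SoxD peaks were intronic, whereas 32 of 36 SoxC peaks and all 26 SoxE peaks were intergenic.

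TTCCCA words were counted on both strands. SoxC peaks held 77 in 79.8 kb, 0.965 per kb (exact Poisson interval 0.761 to 1.21), and SoxD and SoxE peaks held 244 in 212 kb, 1.15 per kb (1.01 to 1.31). The difference was 0.188 per kb (-0.0905 to 0.443), and all consensus peaks had 1.17 per kb. By gene the density was 0.974 at Sox4, 0.935 at Sox11, 0.978 at Sox5, 1.17 at Sox6 and 1.21 at Sox9. At least 1 word was present in 93 of the 116 peaks (80.2%), compared with 82.9% of all. No peak of the 9 genes held TGGGAA followed after 15 to 17 bases by TTCCCA, the head-to-head arrangement of paired Notch sites, and 0.231% of all peaks did. Of 12 RefSeq promoters for 7 of the 9 genes, 2 held the word, 1 each of Sox4 and Sox13, and neither was overlapped by a consensus peak.

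Genes with the most similar distribution over the 8 clusters were named by Euclidean distance between shares, among 276 genes with at least 10 peaks. For Sox9 they were Epha4 (0.0677), Pou3f3 (0.140) and Sox6 (0.143). For Sox4 they were Samd5 (0.102), Gpd2 (0.126) and Tenm4 (0.160), and for Sox5 they were Gm11146 (0.146), Npas3 (0.154) and Sox9 (0.156). Of the SoxC genes, only Sox4 and Sox11 had at least 10 peaks. Neither was among the 3 nearest to Sox9 or Sox5, and Sox11 was not among the 3 nearest to Sox4. Among the other Sox genes, Sox2, a stem cell factor, had 23 peaks, of which RGC RBPJ called 20, RGC Notch 4, IPC RBPJ 3 and IPC Notch 5, with 8 in cluster 6. Sox1 had 7, Sox3 and Sox21 had 4 each, Sox17 had 2, Sox14 and Sox30 had 1 each, and Sry, Sox7, Sox15 and Sox18 had 0.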

How the data were processed

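With Macs2, the authors compared fusion and Dam-only samples in pairs on mm10 and retained broad peaks that passed an FDR limit in each comparison. They joined overlapping peaks into consensus peaks and grouped these by k-means. The deposited values are positions in bp (start and end) in 4 pooled lists and 1 cluster file. Their score column is constant, and depth per sample is unknown.

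Of 39 samples, 14 fusion samples lie behind these lists. The 9 Dam-only samples with the same promoters are taken as their controls, as the paper does not state which Dam-only samples were paired. The other 16 (full-length Notch, neurons and a ubiquitous promoter) were not analysed here. Peaks on 21 nuclear chromosomes were assigned by distance from the peak edge to start sites of protein-coding transcripts (GENCODE M21), and genomic features were read at the midpoint. Motif words were counted on the GRCm38.p6 sequence. Positions count from 1. The text names all 9 genes and gives positions of peaks in 3 or 4 lists, on a start site or nearest to one. A few further peaks were chosen after their values were seen, as was the densest 100 kb of each gene. The genes and gene lists were chosen with earlier results of these data known. Software was scipy 1.17.1, pandas 2.3.3 and numpy 2.4.6 under Python 3.11.15, with plots from matplotlib 3.10.9. Assignment and intervals were tested on simulated data. The intervals were tested on independent draws only, which does not cover peaks that share a locus. The alternatives were other start-site sets, the peak midpoint, a 100 kb limit, peaks of at least 1000 bp, coverage of 50%, bases for peaks, single groups and each gene left out.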

Additional observations from a re-analysis of the deposited data

How the results depend on the processing

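Of 304 values under alternatives, 276 stayed within the interval or 1.5 times of the reported value, 28 did not and 0 changed sign against an interval that excluded 0. These counts do not measure stability, because many intervals were wide and a change of sign was counted only where the interval excluded 0. Some values that stayed had the other sign. The RGC RBPJ difference was 9.17 points and -4.49 for SoxE alone, and that of cluster 6 was 8.89 and -6.82 within 100 kb. With start sites of all annotated genes, SoxC kept 6 peaks, SoxD 35 and SoxE 0, Sox9 included, because non-coding genes lie nearer. The differences, SoxD minus SoxC, then were 38.1 points for RGC RBPJ, -41.0 for IPC RBPJ, -10.5 for IPC Notch, -8.10 for cluster 3, -11.0 for cluster 4, 28.6 for cluster 5, -19.0 for cluster 6 and -24.8 for cluster 7. Within 100 kb, SoxC kept 11, SoxD 35 and SoxE 9 peaks, and the differences were -2.27 points for cluster 3 and 25.0 for cluster 5. Without Sox4 the cluster 4 difference was -3.33. In the central 500 bp the TTCCCA difference was 0.462 per kb, and with 1 start site per gene the SoxD median distance was 322 kb. The cause was not tested. Leaving out peaks without a GATC site was chosen after seeing the data and kept the SoxC, SoxD and SoxE counts at 33, 53 and 24. The alternative with higher-score peaks was not run because the score is constant. No paired analysis was possible because the lists are pooled over samples. Counts of peaks and absent depth limit every share.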

Other observations

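Words of other factors were also counted in the peaks, on both strands. TAATTA, the core of homeobox sites such as those of LHX2, was present in 49 of 80 SoxD and SoxE peaks (61.2%, interval 50.3 to 71.2) and in 12 of 36 SoxC peaks (33.3%, 20.2 to 49.7), compared with 45.7% of all consensus peaks. The difference was 27.9 percentage points (8.25 to 44.4), and it was not recalculated with single genes left out. The share was 16.7% at Sox11, 41.7% (24.5 to 61.2) at Sox4, 57.1% at Sox5, 60.9% at Sox9 and 73.3% at Sox6. SoxC peaks were narrower, with a median of 1768 bp compared with 2424 bp, and per length the density was 0.338 per kb (0.223 to 0.492) at SoxC and 0.515 per kb (0.423 to 0.621) at SoxD and SoxE, compared with 0.358 over all peaks. By gene it was 0.672 at Sox5, 0.518 at Sox6, 0.463 at Sox9, 0.380 at Sox4 and 0.208 at Sox11. The part of peak width in the share was not tested. ACAAAG, a core of Sox sites, was present at 1.03 per kb in both sets and at 0.970 per kb over all peaks. GATC, on which Dam acts, was present at 2.51 per kb (2.17 to 2.88) in SoxC peaks and 2.82 (2.59 to 3.05) in SoxD and SoxE peaks.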
